A study of Mus musculus with 9 samples.

Results

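Transforming growth factor beta (TGF-beta) signalling was examined through 9 genes of the pathway in RNA from hair follicle stem cells of dietary restricted and freely fed C57BL/6J mice. The members were taken by gene symbol: the ligands Tgfb1, Tgfb2 and Tgfb3, the receptors Tgfbr1 and Tgfbr2, the signal transducers Smad2 and Smad3, and the targets Skil and Tgfbi. All 9 were found among 35006 gene symbols in the count tables. The study asked how dietary restriction affects the follicle stem cells and, by its title, hair graying after irradiation.

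The dietary restriction group (DR, 4 libraries) received each day 70% of the amount of food that matched freely fed mice ate, and the ad libitum group (AL, 5 libraries) had food without limit. All mice were housed singly, and the sorted population in both groups was defined by the surface antigens CD34 and integrin alpha6, which mark the bulge of the follicle. Each pool for sorting held 3 mice, and the labels name 2 animal suppliers and facilities without saying which mice came from which. They give no age, sex, irradiation state, hair cycle stage or sampling time for any library. It is not stated whether each library had its own pool, so the p-values below measure the spread between these libraries, which may be partly technical.

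TGF-beta ligands are secreted in a latent form, held in the matrix by binding proteins and released by integrins and proteases. The active ligand is bound by the type II receptor (Tgfbr2), which phosphorylates the type I receptor (Tgfbr1), and this in turn phosphorylates Smad2 and Smad3, which enter the nucleus with Smad4 and act on target genes. In mouse hair follicles TGF-beta2 from the dermal papilla is known to help stem cells enter a new growth phase, while TGF-beta1 is known for promoting regression of the growing follicle.

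Gene counts per library ran from 26119459 to 33559312, and each member had between 474 and 50650 reads in every library, so counting error was small beside the spread between libraries. Levels are given as CPM, read counts scaled to a common library size, after TMM scaling. TMM multiplies each library size by a factor meant to offset differences in composition. The 12 listed bulge markers summed to 21797 to 23436 CPM in DR and 28194 to 39758 CPM in AL. This sum was mostly Krt15, Krt5 and Krt14. Of the 12, Krt15, Krt5, Krt14, Sox9 and Cd34 fell, Cd200 rose and 6 did not pass. For Cd34 (log2 fold change -1.18, edgeR adjusted p = 0.016) the diets overlapped. Itga6, which encodes integrin alpha6, did not pass (-0.12). The sum alone therefore does not show that bulge identity was alike in both diets. Several libraries stood apart. Markers of endothelial cells summed to 45.7 and 27.0 CPM in DR replicates 1 and 2 and 5.83 and 5.06 CPM in DR replicates 3 and 4, against 20.6 CPM in AL replicate 1 and 2.22 to 10.3 CPM in the other AL libraries. All 12 proliferation markers were lower in DR, with a summed level of 16.4 to 40.4 CPM in DR against 96.0 CPM in AL replicate 5 and 367 to 698.5 CPM in the other AL libraries. Summed immune markers were 16.9 to 46.8 CPM in DR and 12.1 to 28.6 CPM in AL, and melanocyte markers 125 to 177 CPM in DR and 112 to 231 CPM in AL. The immune sum was mostly Cd68 (15.1 to 33.8 CPM in DR, 9.28 to 19.8 CPM in AL), and none of the 4 immune markers tested passed. The melanocyte sum was mostly Mitf (118 to 169 CPM in DR, 100.4 to 223 CPM in AL). Of the 5 melanocyte markers tested, Dct (log2 fold change -2.17, edgeR adjusted p = 0.00207) and Tyrp1 (-2.13, adjusted p = 0.0148) fell. These calls were 40.0% of the 5, near the 40.7% of all tested genes. Mitf (-0.10), Pmel (0.10) and Sox10 (-0.56) did not pass. Tyrp1 had only 4 to 11 reads per DR library and 6 to 63 per AL library, and its diets overlapped. The mean log2 level of the list was lower in every DR library (1.01 to 1.31) than in every AL library (1.32 to 2.06). The diets nearly met, at 1.313 in DR replicate 2 and 1.320 in AL replicate 5. This mean gives equal weight to Tyr (0 to 6 reads per library) and Mlana (0 to 3 reads). AL replicate 5 was also the library farthest from its group along the second principal component. In these sorted bulk samples, fewer cells of a type and less RNA per cell cannot be told apart.

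Promoter windows of 3 members are printed, those of the ligands Tgfb1 and Tgfb2 and of Tgfbr2, the receptor called between diets. They are the 250 bases before the annotated start, from RefSeq on GRCm38.p6 (the reads were counted on mm9), written 5′ to 3′ on the strand of the gene. Capitals mark CAGAC or its reverse complement GTCTG, the 5-base core that Smad proteins are known to bind.
Tgfb1 (chr7:25686752-25687001, plus strand): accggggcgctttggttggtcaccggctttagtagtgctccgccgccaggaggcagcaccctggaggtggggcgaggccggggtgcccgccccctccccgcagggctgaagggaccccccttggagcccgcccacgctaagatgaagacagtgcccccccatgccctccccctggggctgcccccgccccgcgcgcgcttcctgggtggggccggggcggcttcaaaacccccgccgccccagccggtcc
Tgfb2 (chr1:186705990-186706239, minus strand): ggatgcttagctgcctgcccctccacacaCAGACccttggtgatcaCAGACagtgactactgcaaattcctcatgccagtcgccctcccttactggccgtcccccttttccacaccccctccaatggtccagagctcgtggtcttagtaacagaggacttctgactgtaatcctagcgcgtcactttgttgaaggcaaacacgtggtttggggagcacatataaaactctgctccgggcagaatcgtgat
Tgfbr2 (chr9:116175364-116175613, minus strand): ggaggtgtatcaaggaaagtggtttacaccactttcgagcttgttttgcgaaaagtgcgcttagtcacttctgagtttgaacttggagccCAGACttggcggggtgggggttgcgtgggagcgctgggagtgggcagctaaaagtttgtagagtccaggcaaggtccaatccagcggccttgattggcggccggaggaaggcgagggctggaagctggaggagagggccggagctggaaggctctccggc
The Tgfb2 window held 2 matches, the Tgfbr2 window 1 and the Tgfb1 window 0. A match was found in 42.2% of the 32851 promoter windows of the same length, and at least 2 matches in 11.7%, so a match is common and describes only these letters. A window was matched for 6 of the 9 members, and not for Tgfb3, Skil and Smad2.

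Of the 9 members, Tgfb3 fell and Tgfbr2 rose in DR, and the other 7 did not pass. These 2 calls are 22.2% of the members, against 40.7% of the 15447 tested genes called by edgeR's quasi-likelihood test at an adjusted p of 0.05 (19.0% higher and 21.7% lower in DR). All 9 passed the filter on low counts. The members' median log2 fold change was -0.01, and it was -0.02 over all tested genes. The median size of the change, whatever its direction, was 0.26 for the members and 0.34 for all tested genes. DR and AL levels were fully apart for 1 of the 9 members and for 32.9% of tested genes.

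**Figure D1:**
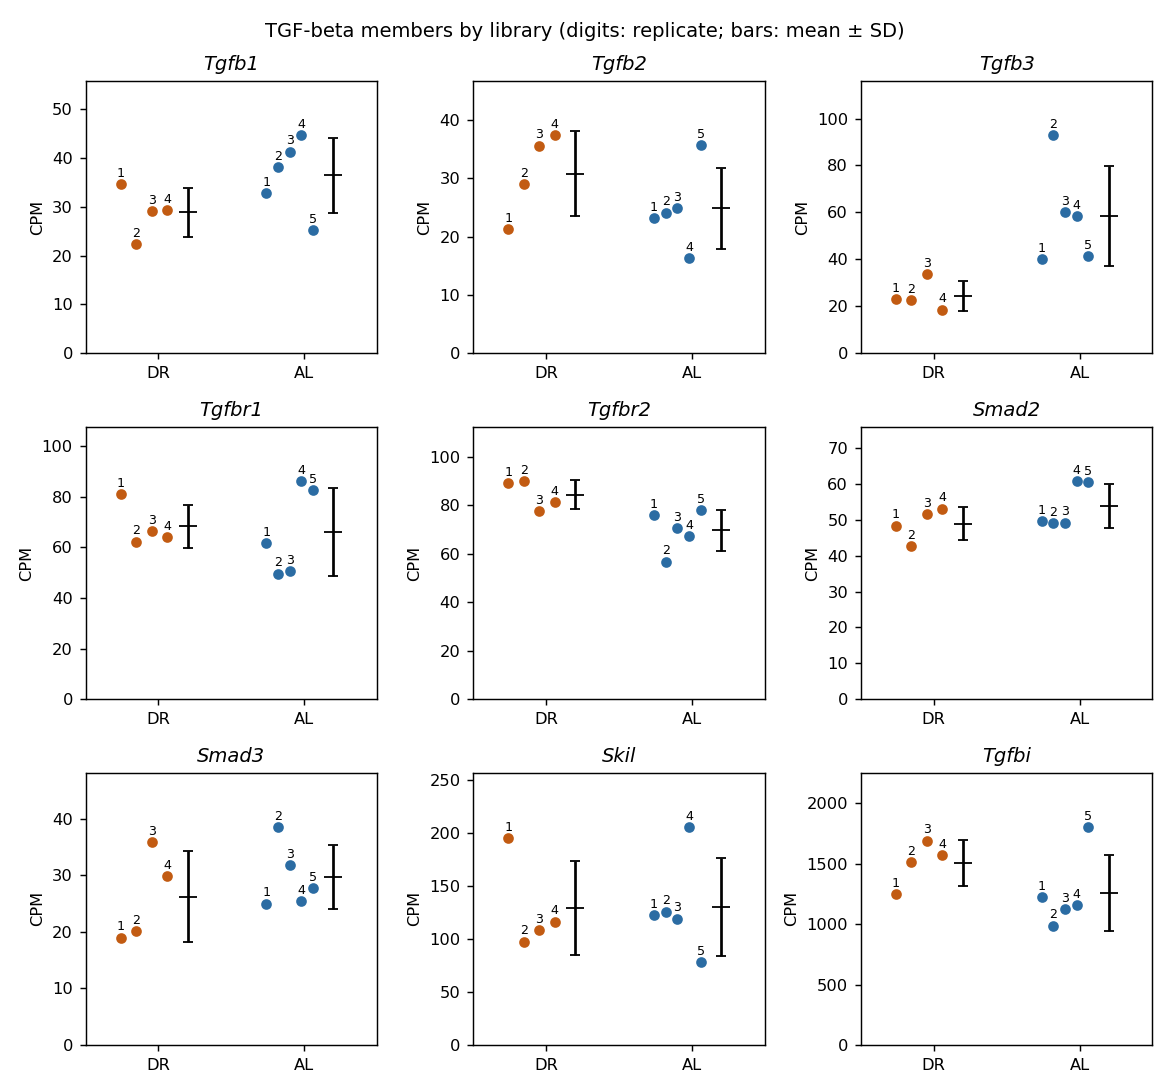
Level of each member in CPM (vertical axes, starting at 0) in the 4 DR and 5 AL libraries; each point is a library, its digit is the replicate number, and the bar beside the points is the mean ± SD. For Tgfb3 every DR library (18.6 to 33.7 CPM) lay below every AL library (40.1 to 92.8 CPM), while the diets overlapped for the other 8 members.

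Among the ligands, the one called between diets was Tgfb3, which encodes TGF-beta3, a ligand best known for palate fusion and wound repair. It had 23.1, 22.6, 33.7 and 18.6 CPM in DR replicates 1 to 4, against 40.1, 92.8, 60.3, 58.3 and 41.4 CPM in AL replicates 1 to 5. Every DR library lay below every AL library, and AL replicate 2 was the highest of all. Tgfb3 averaged 24.5 ± 6.46 CPM in DR and 58.6 ± 21.3 CPM in AL (SD, n = 4 and 5). The log2 fold change was -1.26 (SE 0.26; 95% interval -1.82 to -0.70; edgeR adjusted p = 0.00274), which puts DR at 0.42 times the AL level. Its size exceeded that of 91.7% of tested genes. The call held under all 21 alternatives, with log2 fold changes of -1.44 to -1.02 and adjusted p-values of 8.2e-06 to 0.036. The value nearest 0 was found without AL replicate 2 (-1.02, adjusted p = 0.0034).

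Other measures also differed between the diets. Summed proliferation markers were 16.4 to 40.4 CPM in DR and 96.0 to 698.5 CPM in AL, without overlap. Within AL, replicate 2 was highest for both (698.5 CPM of proliferation markers and 92.8 CPM of Tgfb3). Replicate 5, lowest for proliferation markers (96.0 CPM), was second lowest for Tgfb3 (41.4 CPM), replicate 4 had 689.5 and 58.3 CPM, and replicate 1, lowest for Tgfb3 (40.1 CPM), had a sum of 390 CPM. AL replicate 3 was second highest of AL for Tgfb3 (60.3 CPM) and second lowest for the markers (367 CPM). The orders within AL thus differed. Within DR the orders also differed. DR replicate 3 was highest for Tgfb3 (33.7 CPM) with 23.7 CPM of markers. DR replicate 2 was highest for the markers (40.4 CPM) with 22.6 CPM of Tgfb3. The 12 fibroblast markers summed to 213 to 285 CPM in DR and 360 to 405 CPM in AL, a sum carried mainly by Fbln1, Col1a1 and Col1a2. Of the 7 fibroblast markers tested, 4 were called (57.1%, against 40.7% of all tested genes). Col1a1, Col1a2 and Thy1 fell, Pdgfra rose, and Fbln1, Dcn and Vim did not pass. Thy1 averaged 2.91 ± 0.35 CPM in DR and 13.1 ± 4.16 CPM in AL (log2 fold change -2.17, edgeR adjusted p = 1.2e-04), without overlap, as for Tgfb3. Pdgfra averaged 3.02 ± 1.85 CPM in DR and 1.07 ± 0.34 CPM in AL (log2 fold change 1.49, adjusted p = 0.0134). The other 5 markers (Col3a1, Pdgfrb, Lum, Dpt and Twist2) did not pass the filter on low counts. The part of cell cycle state or of other cells in the Tgfb3 difference was not tested. In the GENCODE M21 annotation, exons of Tgfb3 and Tgfb2 overlap predicted opposite-strand genes (2 for Tgfb3, 1 for Tgfb2) that the count tables do not list. The library kit does not mark strand, so reads of such transcripts would be counted with these ligands.

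Tgfb1 encodes the most widely expressed ligand. Its levels were 34.7, 22.4, 29.1 and 29.3 CPM in DR replicates 1 to 4 and 32.8, 38.2, 41.3, 44.6 and 25.3 CPM in AL replicates 1 to 5. AL replicate 5 was the lowest AL library and lay within the DR range. The means were 28.9 ± 5.03 CPM in DR and 36.4 ± 7.62 CPM in AL (SD, n = 4 and 5), and the difference did not pass (log2 fold change -0.34; SE 0.17; 95% interval -0.71 to 0.04; edgeR adjusted p = 0.136). Without AL replicate 5 it was -0.44 and passed (adjusted p = 0.0263).

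Tgfb2, the ligand known for activating follicle stem cells, had 21.3, 29.1, 35.6 and 37.3 CPM in DR replicates 1 to 4, against 23.2, 24.1, 24.9, 16.3 and 35.8 CPM in AL replicates 1 to 5. In AL, replicate 5 was highest and replicate 4 lowest, and in DR, replicate 1 was lowest, so the diets overlapped. Means were 30.8 ± 7.28 CPM in DR and 24.8 ± 6.99 CPM in AL (SD, n = 4 and 5; log2 fold change 0.31, SE 0.21, 95% interval -0.16 to 0.78, edgeR adjusted p = 0.271). Leaving out AL replicate 5 and DR replicate 1 together, the lowest library of each diet for proliferation markers, gave a log2 fold change of 0.63 (adjusted p = 0.00866); that choice was made after seeing the data.

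The balance of the ligands was compared within libraries, where scaling has no effect. The log2 ratio of Tgfb2 to Tgfb1 counts was -0.70, 0.38, 0.29 and 0.35 in DR replicates 1 to 4 and -0.50, -0.66, -0.73, -1.45 and 0.50 in AL replicates 1 to 5. Thus 3 of 4 DR libraries had more Tgfb2 than Tgfb1 reads, as did 1 of 5 AL libraries, AL replicate 5. The mean ratio was 0.08 ± 0.52 in DR and -0.57 ± 0.70 in AL (SD; difference 0.65; exact two-sided permutation p = 0.254, adjusted p = 0.50 over 3 ratios; the smallest p possible was 0.0159). The difference did not exceed the spread between libraries.

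**Figure D2:**
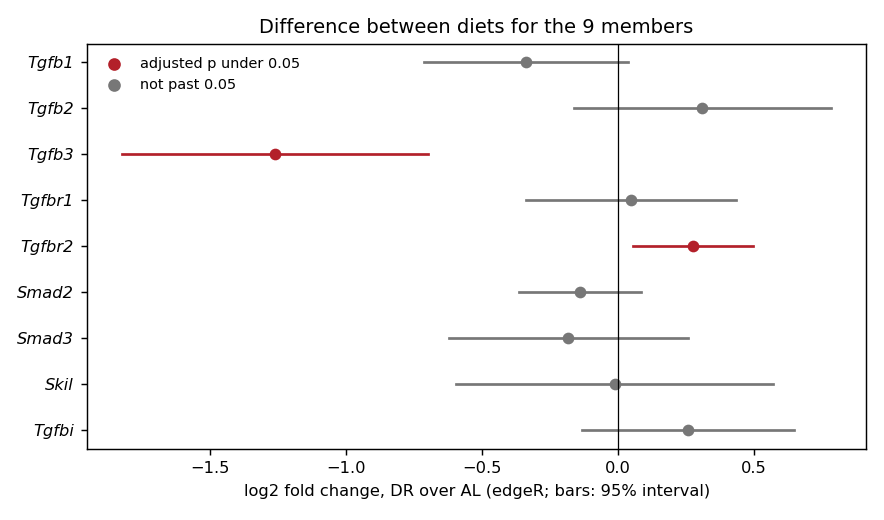
Log2 fold change of DR over AL for the 9 members from edgeR (points) with 95% intervals (bars); red marks an adjusted p under 0.05. Tgfb3 (-1.26) and Tgfbr2 (0.28) are past the threshold, and the intervals of the other 7 include 0.

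Of the receptors, Tgfbr2, the type II receptor that binds the ligand first, was called higher in DR by a small margin. It had 89.1, 89.9, 77.5 and 81.2 CPM in DR replicates 1 to 4, against 76.0, 56.7, 70.6, 67.3 and 77.9 CPM in AL replicates 1 to 5. AL replicate 5 lay just above DR replicate 3, so the diets overlapped. Means were 84.4 ± 6.05 CPM in DR and 69.7 ± 8.39 CPM in AL (SD, n = 4 and 5), a log2 fold change of 0.28 (SE 0.10; 95% interval 0.05 to 0.50; edgeR adjusted p = 0.0475), or 21.1% above AL. The call was lost without any 1 of AL replicates 2, 3 and 4 or DR replicates 1, 2 and 4 (adjusted p 0.0695 to 0.114). It was also lost under 3 other settings: upper-quartile scaling, library size only and no filter on low counts (0.074 to 0.115). The highest Tgfbr2 levels were in DR replicates 1 and 2, which also held the highest endothelial marker sums. Without both, the log2 fold change was 0.19 (adjusted p = 0.275), and their part in the call was not tested further. In all, 12 of the 21 alternatives lost the call, each with a log2 fold change above 0.

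Tgfbr1, the type I receptor, stood at 80.9, 62.3, 66.3 and 64.1 CPM in DR replicates 1 to 4 and 61.7, 49.7, 50.5, 86.2 and 82.8 CPM in AL replicates 1 to 5. The AL libraries fell into a lower group of 3 and a higher group of 2, and all DR libraries lay between the AL extremes. Summed suprabasal markers were 2387 to 5782 CPM in DR and 2102 to 4855 CPM in AL, and split the AL libraries the other way: 3976 to 4855 CPM in AL replicates 1 to 3, and 2102 and 2126 CPM in replicates 4 and 5. DR replicate 1, highest of DR for Tgfbr1, was lowest of DR for these markers (2387 CPM). Their part in the Tgfbr1 levels was not tested. Means were 68.4 ± 8.52 CPM in DR and 66.2 ± 17.4 CPM in AL (SD, n = 4 and 5; log2 fold change 0.05, 95% interval -0.34 to 0.43, edgeR adjusted p = 0.849). The sign of this estimate was below 0 with upper-quartile scaling, with library size only, and without any 1 of AL replicates 2 and 3 or DR replicate 1 (lowest value -0.04). The log2 ratio of Tgfbr1 to Tgfbr2 averaged -0.31 ± 0.17 in DR and -0.11 ± 0.33 in AL (SD; difference -0.20; exact two-sided permutation p = 0.333, adjusted p = 0.50 over 3 ratios), within the spread between libraries.

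The receptor-activated Smads did not pass. Smad2 had 48.5, 42.7, 51.6 and 53.2 CPM in DR replicates 1 to 4 and 49.8, 49.1, 49.3, 60.8 and 60.6 CPM in AL replicates 1 to 5. AL replicates 4 and 5, which were also highest for Tgfbr1, were the highest here, and the other 3 AL libraries lay within the DR range. The means were 49.0 ± 4.60 CPM in DR and 53.9 ± 6.20 CPM in AL (SD, n = 4 and 5; log2 fold change -0.14, 95% interval -0.36 to 0.09, edgeR adjusted p = 0.305).

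Smad3, the other receptor-activated Smad, which binds DNA directly, had 19.0, 20.2, 35.9 and 29.8 CPM in DR replicates 1 to 4 and 24.99, 38.5, 31.8, 25.5 and 27.8 CPM in AL replicates 1 to 5. The DR libraries split in pairs: replicates 1 and 2, those with high endothelial markers, were below every AL library, and replicates 3 and 4 were within the AL range. Means were 26.2 ± 8.05 CPM in DR and 29.7 ± 5.62 CPM in AL (SD, n = 4 and 5; log2 fold change -0.18, 95% interval -0.62 to 0.26, edgeR adjusted p = 0.496). Without DR replicates 1 and 2 the estimate was 0.15 (adjusted p = 0.554). The log2 ratio of Smad2 to Smad3 averaged 0.95 ± 0.35 in DR and 0.87 ± 0.37 in AL (SD; difference 0.08; exact two-sided permutation p = 0.778, adjusted p = 0.778 over 3 ratios).

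The members that are known targets of the pathway, Skil and Tgfbi, did not pass. Skil encodes SnoN, a repressor that holds back Smad complexes and whose gene TGF-beta induces as negative feedback. It had 195, 97.7, 109 and 116 CPM in DR replicates 1 to 4 and 123, 125.9, 119, 206 and 78.6 CPM in AL replicates 1 to 5. DR replicate 1 and AL replicate 4 stood well above the rest of their diets, and AL replicate 5 was lowest of all, so the AL range enclosed that of DR. The means were 129.5 ± 44.5 CPM in DR and 130.5 ± 46.3 CPM in AL (SD, n = 4 and 5; log2 fold change -0.01, 95% interval -0.59 to 0.57, edgeR adjusted p = 0.978).

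Tgfbi encodes a secreted matrix protein that binds integrins and collagens. It was by far the most abundant member, above 99.7% of tested genes in CPM. Tgfbi had 1249, 1516, 1692 and 1569 CPM in DR replicates 1 to 4 and 1222, 988, 1126, 1156 and 1803 CPM in AL replicates 1 to 5. In AL, replicates 1 to 4 lay below every DR library, and AL replicate 5 lay above every DR library. Means were 1506 ± 187 CPM in DR and 1259 ± 316 CPM in AL (SD, n = 4 and 5; log2 fold change 0.26, SE 0.18, 95% interval -0.13 to 0.65, edgeR adjusted p = 0.269). Leaving out AL replicate 5 gave 0.42 on the log2 scale (adjusted p = 0.0241), so the outcome for Tgfbi rests on that library.

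**Figure D3:**
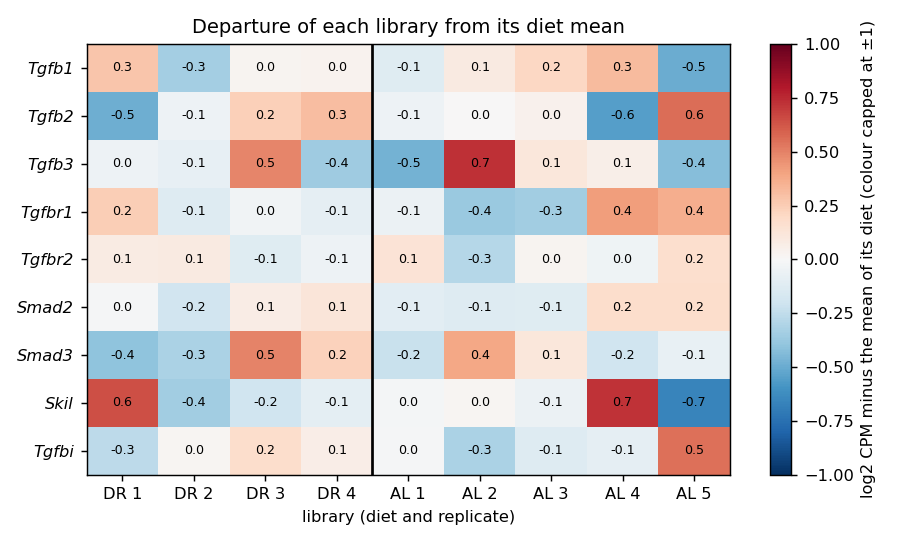
Departure of every library (columns, DR left and AL right of the line) from the mean of its own diet for each member (rows), in log2 CPM. AL replicate 5 stands above its diet for Tgfb2 (0.56) and Tgfbi (0.55) and below it for Skil (-0.66) and Tgfb1 (-0.49), and DR replicate 1 stands above its diet for Skil (0.65) and below it for Tgfb2 (-0.49).

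Within diets, some members varied together. With each diet's mean taken away, the log2 levels of Skil and Tgfb1 had a Pearson correlation of 0.86 over the 9 libraries, Skil and Tgfb2 one of -0.91, and Tgfb2 and Tgfbi one of 0.74. Tgfbr1 and Smad2 had 0.74, Tgfb3 and Tgfbr2 -0.85, Tgfbr2 and Smad3 -0.76, and Tgfb1 and Tgfbi -0.75. Correlations of all other pairs of the 9 members were weaker. These are descriptions of 9 libraries that share depth and composition within each pair, and in the pairs with Skil the extremes were DR replicate 1, AL replicate 4 and AL replicate 5. By the same measure, the genes most like the ligand, receptor and target with the highest CPM were Plcd3, Chdh and Smyd2 for Tgfb3 (0.944 to 0.982), C78339, Ccdc3 and Lhfp for Tgfbr2 (0.948 to 0.953), and Tbc1d12, Dok4 and Lamb3 for Tgfbi (highest 0.985). Candidates were the 11498 tested genes averaging 2 or more in log2 CPM, without the member itself. The ranking takes the highest of that many correlations over 9 libraries and was not tested.

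To set members beside each other, CPM was divided by the length of all annotated exons. Tgfbi had 399 ± 49.5 CPM per kilobase in DR and 334 ± 83.8 in AL. It was highest in both diets. In DR the next by mean were Skil and Tgfbr1, and in AL Tgfb3 stood second, above both. Skil had 13.4 ± 4.59 in DR and 13.5 ± 4.77 in AL, and Tgfbr1 10.5 ± 1.30 in DR and 10.1 ± 2.66 in AL, on this per-length scale. Tgfbr2 stood at 10.3 ± 0.74 in DR and 8.52 ± 1.02 in AL. In DR the receptors lay within each other's spread, and in AL the Tgfbr2 mean lay within 1 SD of Tgfbr1 but not the reverse. The ligands had the same order by mean in both diets. In DR, Tgfb3 (7.24 ± 1.91 CPM per kilobase), Tgfb1 (5.72 ± 0.998) and Tgfb2 (5.32 ± 1.26) lay within about 1 SD of their neighbour, whereas in AL Tgfb3 (17.3 ± 6.29) stood above Tgfb1 (7.22 ± 1.51), and Tgfb1 above Tgfb2 (4.29 ± 1.21), by more than 1 SD of either. Smad2 (5.58 ± 0.52 in DR, 6.14 ± 0.71 in AL) and Smad3 (4.73 ± 1.45 in DR, 5.36 ± 1.01 in AL) were close to Tgfb1 and Tgfb2 in DR.

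Beyond the 9 members, 101 other genes of the pathway were listed in 4 groups, of which 90 were tested. Of these, 20 rose and 16 fell, or 40.0% called, against 40.7% of all tested genes. The median log2 fold change was 0.12, against -0.02 over all tested genes. The count of called genes was thus near the background, and the results below are those of single genes.

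**Figure D4:**
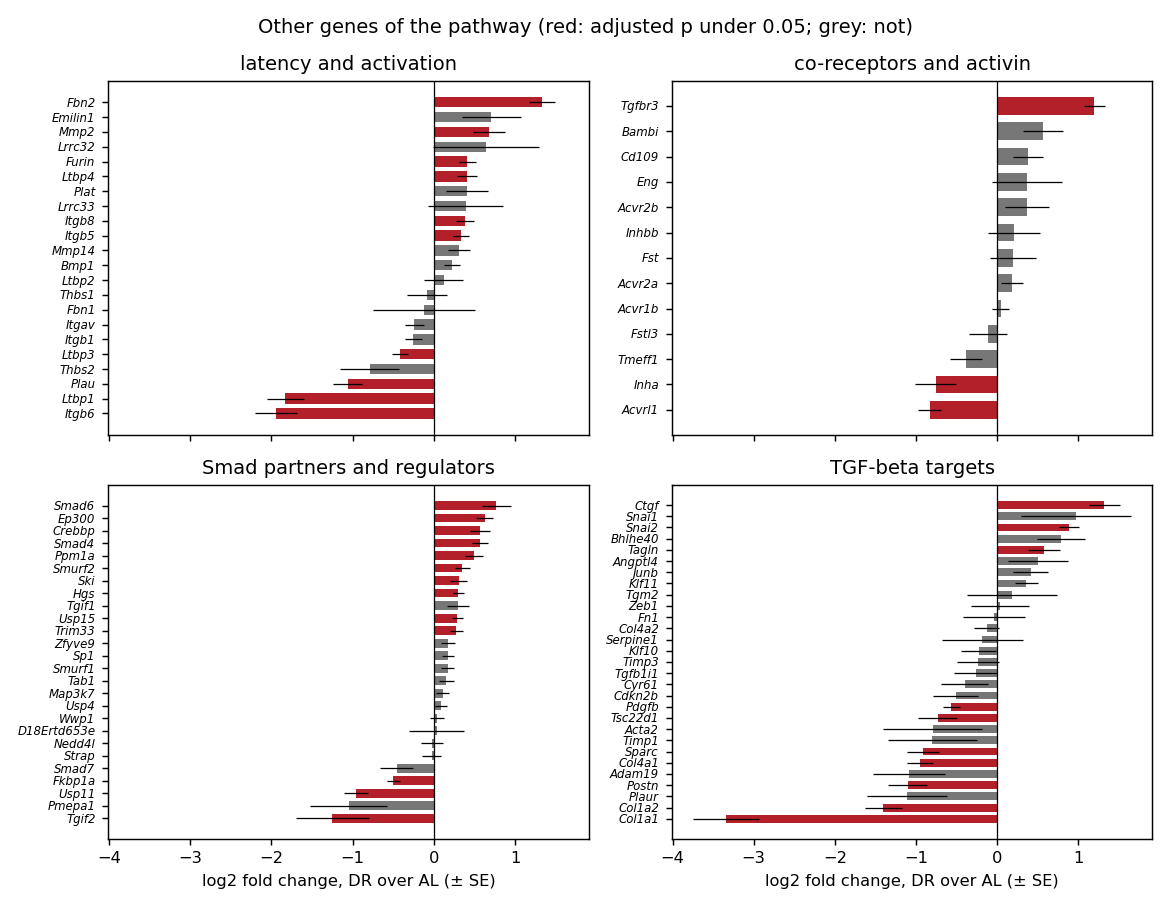
Log2 fold change of DR over AL (horizontal bars from 0, with SE) for the tested genes of the 4 pathway lists, sorted within each list; red marks an edgeR adjusted p under 0.05. Ltbp1 (-1.83), Itgb6 (-1.95) and Col1a1 (-3.34) have the lowest called values, and Fbn2 (1.33), Ctgf (1.32) and Tgfbr3 (1.20) the highest.

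Genes that store or release the latent ligand moved in both directions: of 22 tested, 6 rose and 4 fell, or 45.5% against 40.7% of all tested genes (median log2 fold change 0.27). Ltbp1, whose product tethers latent TGF-beta to the matrix, had 42.8, 50.8, 50.9 and 54.0 CPM in DR replicates 1 to 4, against 135, 156, 159, 138 and 296 CPM in AL replicates 1 to 5. The diets were well apart, with AL replicate 5 highest (log2 fold change -1.83, SE 0.23, edgeR adjusted p = 1.8e-04). Itgb6, the beta chain of the integrin alphavbeta6 that activates latent TGF-beta in epithelia, had 10.03, 19.2, 14.6 and 12.6 CPM in DR replicates 1 to 4 and 36.8, 60.4, 42.5, 49.5 and 83.4 CPM in AL replicates 1 to 5 (log2 fold change -1.95, SE 0.26, adjusted p = 2.5e-04). Every DR library lay below every AL library. Plau, the urokinase plasminogen activator, fell by 1.06 on the log2 scale to 5.92 ± 1.001 CPM in DR, against 12.4 ± 2.35 CPM in AL. Fbn2, a microfibril protein, rose by 1.33 on the log2 scale at a low level (10.2 ± 1.76 CPM in DR, 4.06 ± 0.56 CPM in AL). The most abundant genes of the list not called were Thbs1, an extracellular activator of TGF-beta (1340 ± 421 CPM in DR, 1421 ± 364 CPM in AL), and Ltbp2 (732 ± 117 CPM in DR, 674 ± 233 CPM in AL).

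Of 13 tested co-receptors, activin receptors, ligands and antagonists, 1 rose and 2 fell (median 0.20), or 23.1% against 40.7% of all tested genes. The gene that rose was Tgfbr3, which encodes betaglycan, a co-receptor that presents TGF-beta2 to the signalling receptors and also binds inhibin. Tgfbr3 had 36.1, 41.0, 35.5 and 50.8 CPM in DR replicates 1 to 4, against 17.6, 15.97, 16.6, 17.5 and 21.5 CPM in AL replicates 1 to 5. All DR libraries were above all AL libraries, and the log2 fold change was 1.20 (SE 0.13, edgeR adjusted p = 7.6e-05). Acvrl1, a type I receptor best known from endothelial cells, fell by 0.83 on the log2 scale (19.7 ± 1.46 CPM in DR, 35.2 ± 7.82 CPM in AL). Inha, the inhibin alpha subunit, fell by 0.76 on the log2 scale at a low level (5.15 ± 1.40 CPM in DR, 8.72 ± 2.67 CPM in AL; adjusted p = 0.0333). The call of Inha was lost without any 1 of AL replicates 1, 2 and 3 or DR replicates 1 and 3 (adjusted p 0.055 to 0.0907). Not called were Fst, an activin antagonist (561 ± 142 CPM in DR, 489 ± 206 CPM in AL), and Cd109, a co-receptor that inhibits TGF-beta signalling (503 ± 33.6 CPM in DR, 386 ± 114 CPM in AL). Cd109 passed without AL replicate 5 (log2 fold change 0.57, adjusted p = 0.00361).

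Partners and regulators of the Smads were called in 13 of 26 tested genes, 10 higher and 3 lower, or 50% against 40.7% of all tested genes (median 0.17). Smad4, the shared partner that carries Smad2 and Smad3 to their targets, had 109 to 147 CPM in DR and 80.5 to 95.9 CPM in AL, without overlap (128.9 ± 15.7 CPM in DR and 86.8 ± 5.69 CPM in AL; log2 fold change 0.57, SE 0.10, edgeR adjusted p = 9.2e-04). Ep300, a histone acetyltransferase that Smad complexes recruit among many other factors, rose by 0.63 on the log2 scale (266 ± 17.5 CPM in DR, 172 ± 21.3 CPM in AL). Fkbp1a, which encodes FKBP12, a protein that holds the type I receptor inactive, fell by 0.50 on the log2 scale (49.8 ± 2.87 CPM in DR, 70.3 ± 5.03 CPM in AL). Usp11, a deubiquitinase that acts on the pathway, fell by 0.96 on the log2 scale (13.7 ± 2.30 CPM in DR, 26.7 ± 4.36 CPM in AL). The most abundant genes of the list not called were Sp1 (217 ± 7.48 CPM in DR, 192 ± 9.99 CPM in AL) and Tgif1, a Smad corepressor (184 ± 19.2 CPM in DR, 150 ± 28.4 CPM in AL). Tgif1 passed without AL replicate 4 (log2 fold change 0.42, adjusted p = 0.00719).

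Of 29 tested genes known as TGF-beta targets in other cells, 3 rose and 7 fell (median -0.24). These calls were 34.5% of the 29, against 40.7% of all tested genes. Ctgf, a matricellular protein gene that responds to TGF-beta and to the YAP coactivator, had 2489, 2055, 2175 and 1390 CPM in DR replicates 1 to 4, against 935, 548, 843, 826 and 905 CPM in AL replicates 1 to 5. Every DR library was above every AL library (log2 fold change 1.32, SE 0.20, edgeR adjusted p = 4.8e-04). Snai2, a transcription factor gene of basal keratinocytes, rose by 0.89 on the log2 scale (111 ± 10.2 CPM in DR, 60.1 ± 10.1 CPM in AL). The collagen genes Col1a1 and Col1a2 fell by 3.34 and 1.40 on the log2 scale; Col1a1 averaged 4.88 ± 3.36 CPM in DR and 49.4 ± 11.8 CPM in AL, and Col1a2 19.6 ± 4.37 CPM in DR and 51.9 ± 15.5 CPM in AL. Both collagen genes are also on the fibroblast marker list, on which Thy1 also fell and Pdgfra rose, as given above. The part of fibroblast RNA in the fall of the collagen genes was not tested. The immediate early gene Junb (4907 ± 1231 CPM in DR, 3691 ± 717 CPM in AL) and Cyr61, a close relative of Ctgf (1987 ± 266 CPM in DR, 2624 ± 1171 CPM in AL), were not called. Of the most abundant genes, Junb passed without DR replicate 2 (log2 fold change 0.58, adjusted p = 0.0383).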

How the data were processed

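Each deposited file holds whole-number read counts per gene symbol for 1 library, with no normalization. Per the submitters' processing notes, the authors ran HTSeq 0.11.2, TopHat2 2.1.0 with Bowtie, and FastQC 0.11.5, on mm9. The sources used here do not give the annotation, the strand setting or the treatment of multiple mapping. Of 35012 lines, 6 name no gene (25.9% to 30.7% of reads) and were left out.

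Genes passing filterByExpr (15447) were fitted with edgeR 4.0.16 in R 4.3.3 (TMM, quasi-likelihood test on diet, all 9 libraries, Benjamini-Hochberg adjustment over all tested genes, threshold 0.05). SEs are those implied by the F statistic. Within-library ratios (0.5 added to each count) were compared by exact permutation. Within each diet, no library was a copy of another (chi-square per degree of freedom 24.6 to 110). Exon lengths came from GENCODE M21. The fit was tested on simulated data. Deviations of same-numbered libraries had Pearson r of -0.165, 0.158, 0.367 and 0.0997 for replicates 1 to 4 over 11498 genes. Since not every pair was above 0.1, replicate numbers were not taken as pairs.

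The members and lists were chosen with earlier results of these data known. Listed genes are named if among the 4 called with the smallest p or the 2 most abundant not called. Of 5 listed symbols absent from the tables, 4 were matched under older names, 2 of them (Ccn1, Ccn2) to genes already listed. Alternatives were other scalings, filters, DESeq2 1.42.0, limma 3.58.1 (voom, with and without quality weights), a replicate block, other thresholds and leaving out libraries. The genes most like Smad2 are not reported here.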

Additional observations from a re-analysis of the deposited data

Results flagged for a closer look

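In AL replicate 5, Tgfbi stood at 1803 CPM, and its distance to the next AL library (1222 CPM) was 0.713 of the whole AL range, just past Dixon's 95% critical value of 0.71 for 5 libraries. This check was made for each of the 9 members in both diets, and chance marks about 1 in 20 such groups. AL replicate 5 also had the lowest proliferation marker sum of AL (96.0 CPM). Whether these are related was not tested.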

How the results depend on the processing

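The fall of Tgfb3 kept its direction and call under all 21 alternatives, 3 of which were chosen after seeing the data. The count of members called higher, 1, was 0 with no filter, library size only, upper-quartile scaling, an adjusted p of 0.01, or without DR replicates 1 and 2 (with or without AL replicate 1), and 2 without AL replicate 5 and DR replicate 1; leaving out single libraries gave 0 to 2. The count called lower, 1, was 2 without AL replicate 5 and DR replicate 1, and 1 to 2 leaving out single libraries. At an adjusted p of 0.01, 3937 genes were called in all and 12 other pathway genes rose, against 6290 and 20. With the replicate block 6433 genes passed, 2 members were called higher (Tgfbr2 and Tgfbi) and 2 lower (Tgfb3 and Tgfb1). No DR library has replicate number 5, so AL replicate 5 has no weight in the diet difference of that fit. The block is therefore not independent of leaving out AL replicate 5, which called the same members. Tgfb1 was -0.45 with the block and -0.44 without AL replicate 5, and Tgfbi was 0.42 in both. The signs of estimates near 0 turned; the cause was not tested. Tgfbr1 was -0.0065 with upper-quartile scaling and -0.00013 with library size only, and Skil 0.0039 with DESeq2 size factors, 0.0041 by DESeq2 and 0.0083 by limma-voom. Without DR replicates 1 and 2, and then also AL replicate 1, Tgfbr1 was -0.017 and -0.043, Smad3 0.15 and 0.089, Fst -0.082 and -0.17, and the Smad2 to Smad3 ratio -0.19 and -0.16; Ltbp2 was -0.081 without the first pair. Whichever single libraries or library sets were left out, ranges crossed 0 for Tgfbr1 (-0.043 to 0.16), Smad3 (-0.35 to 0.15), Skil (-0.40 to 0.21), Thbs1 (-0.51 to 0.062; -0.41 without DR replicates 1 and 2 and AL replicate 1), Ltbp2 (-0.081 to 0.28; -0.0091 without AL replicate 2), Fst (-0.17 to 0.40) and the Smad2 to Smad3 ratio (-0.19 to 0.22). Each member had at least 474 reads in every library.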
